A study of Homo sapiens with 2 samples.

Results

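FOXM1 and the genes of mitosis were compared between 2 RNA-seq libraries of H460 cells, a human cell line from a large-cell carcinoma of the lung. The group holds 42 genes chosen by symbol: the transcription factor FOXM1, its partners MYBL2, LIN9 and LIN54, and genes that act in G2 and mitosis, with the kinesins left out. All 42 were found among the 22965 genes in the files, and all 42 had a mean of at least 10 counts over the libraries, as did 15991 genes in total. Both libraries came from cells grown in DMEM with 10% FBS and taken at passage 5. The control cells carried the pSin-puro vector (genotype control), and the other cells overexpressed PKP2, delivered by that vector. Whether the cells were a pool or a single clone is not given in the sources used here. PKP2 encodes plakophilin 2, which links cadherins to intermediate filaments in desmosomes, and the study asked which genes lie downstream of it.

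FOXM1 is a forkhead transcription factor that switches on genes of the G2 phase and mitosis. It reaches many of them through the MuvB core complex, which contains LIN9 and LIN54: with B-MYB (encoded by MYBL2) and then FOXM1, MuvB activates these genes, and with E2F4 and the pocket proteins p107 and p130 it represses them in resting cells. LIN54 contacts a promoter element called the CHR (cell cycle genes homology region), which usually lies close to the transcription start site and often a short way downstream of CCAAT boxes bound by the factor NF-Y. The products enter mitosis with CDK1 and its cyclins, build the spindle and kinetochores, and leave mitosis when the anaphase-promoting complex marks securin and cyclin B for destruction.

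The vector library held 23513304 counts and the PKP2 library 20319137. PKP2 itself had 181 and 1330 counts, which checks the labels. Each group is a single library, so differences could not be checked against replicates and were not tested. Values are counts, or CPM (counts scaled to library size), and ratios are log2 of the PKP2 library over the vector library, each with a 95% interval that covers the counting error alone. KRT8, KRT18 and KRT19, keratins of simple epithelium, were all well counted but differed in direction: KRT8 had 16537 and 9369 counts (-0.58), KRT18 5954 and 3795 (-0.41) and KRT19 6501 and 11645 (1.08). EPCAM had only 28 and 16 counts. The listed fibroblast markers also parted, with COL1A1 at 132 and 48 counts (-1.22) and PDGFRB at 111 and 208 (1.14), and their part in the results was not tested. The leukocyte marker LYZ and the endothelial marker VWF had at most 4 counts in either library.

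FOXM1 was the exception in its own group: its level in the PKP2 library was 2.23 times that in the vector library, while the 41 other genes lay within 1.5-fold of the vector library. FOXM1 (ENSG00000111206) had 1105 counts (46.6 CPM) in control cells and 2090 (104 CPM) in PKP2 cells, for a ratio of 1.16 (interval 1.05 to 1.26). The median ratio of the other 41 genes was 0.06, so they lay below FOXM1 by a median difference of -1.09. The intervals of all 41 lay wholly below that of FOXM1. One member of 42 was thus at least 2-fold higher, and 0 were at least 2-fold lower. Over all 15991 genes 2.47% were higher by that measure and 4.61% lower. Restricted to the 4845 genes that, like FOXM1, averaged 1000 counts or more, 1.03% were at least 2-fold higher, and 31 of these, FOXM1 included, had a ratio at or above that of FOXM1. Summed without FOXM1, the members held 5232 CPM with the vector and 5497 CPM with PKP2, for a ratio of 0.07. In such bulk RNA a different share of cells in G2 or mitosis and a different amount of RNA per cell cannot be told apart.

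The FOXM1 gene shares its locus with genes on the other strand, and the strand setting of the counting is not given in the sources used here. RHNO1, a DNA damage checkpoint gene that overlaps FOXM1, had 324 and 204 counts, for a ratio of -0.43 (interval -0.69 to -0.17). ITFG2, which overlaps FOXM1 exons, had 209 and 167 counts, for a ratio of -0.09 (interval -0.39 to 0.21). The neighbour TULP3 had 759 and 624 counts. RHNO1 and ITFG2 together had 533 counts with the vector and 371 with PKP2. How many reads of either gene were counted for FOXM1 is not known from these counts and was not tested. FOXM1 shares 17.5% of its 31-base stretches with another listed gene, mostly ITFG2. The summed counts of FOXM1 and all listed genes within 10 kb were 2399 and 3092, for a ratio of 0.60.

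**Figure D1:**
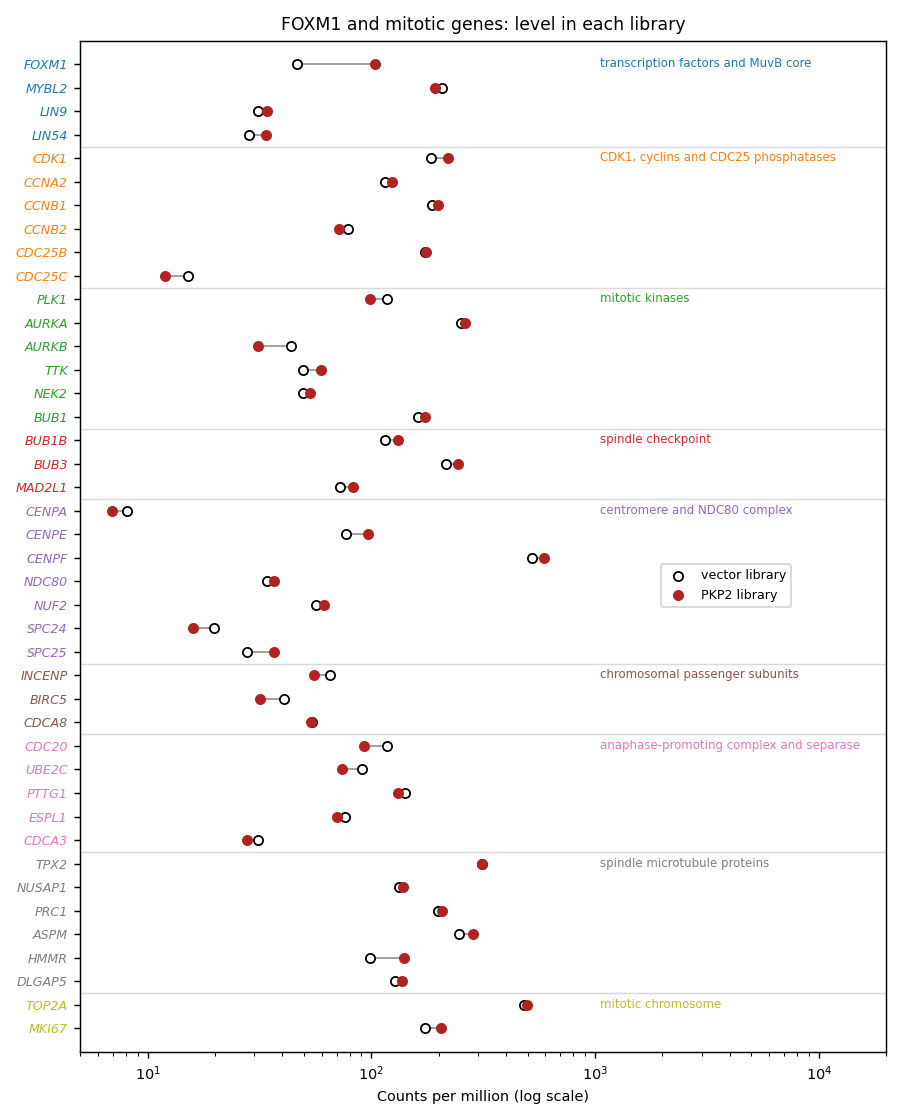
Level of each of the 42 genes in the vector library (open circles) and the PKP2 library (filled circles), in CPM on a log scale, 1 library per group, with genes coloured and ordered by role. FOXM1 moves from 46.6 to 104 CPM, and the circles of most other genes lie side by side.

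Most members with a promoter sequence held letters of the CHR and of a CCAAT box, elements through which genes of this kind are known to be reached, so their presence is a description of the group as chosen. The RefSeq promoter table (GRCh38.p14; 250 bases before to 50 after the start, 1 window per gene, the first listed) held 35 of the 42 genes; AURKA, BIRC5, BUB3, FOXM1, TPX2, TTK and UBE2C had no entry. CHR letters (TTTGAA or TTCGAA, on either strand) were found in 24 of 35 windows, or 68.6%, and in 11.3% of the windows of the 11178 genes that had both a window and an average of 10 counts or more. In 19 genes the letters lay within 50 bases of the start, and in 23 they stood on the strand of the gene. A CCAAT box (CCAAT on either strand) was found in 74.3% of members and 36.7% of those 11178 genes, and both elements together in 57.1% and 4.82%. The E2F letters TTCCCGC or TTGGCGC were found in 22.9% and 14.5%. The forkhead letters GTAAACA or ATAAACA were found in 1 of the 35 windows, that of CDK1, against 4.20% of the 11178 genes. Such matches describe letters and not bound sites. The 250 bases before the start are shown for the member with the highest ratio after FOXM1 (HMMR), the lowest (AURKB), and for 4 genes of the core mitotic switch between them, on the strand of the gene, with the CHR, CCAAT and forkhead letters of either strand in capitals.
HMMR (chr5:163460382-163460631, plus strand): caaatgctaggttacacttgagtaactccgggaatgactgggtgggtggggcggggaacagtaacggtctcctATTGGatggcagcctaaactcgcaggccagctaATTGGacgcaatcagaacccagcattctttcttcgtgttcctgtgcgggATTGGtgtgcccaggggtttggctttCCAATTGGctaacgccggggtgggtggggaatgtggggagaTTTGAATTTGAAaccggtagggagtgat
CDK1 (chr10:60778081-60778330, plus strand): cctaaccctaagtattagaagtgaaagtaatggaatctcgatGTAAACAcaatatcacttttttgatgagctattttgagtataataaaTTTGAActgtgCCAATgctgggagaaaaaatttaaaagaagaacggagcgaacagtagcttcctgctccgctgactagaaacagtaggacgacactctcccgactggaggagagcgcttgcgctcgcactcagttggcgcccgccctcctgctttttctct
CCNB2 (chr15:59104896-59105145, plus strand): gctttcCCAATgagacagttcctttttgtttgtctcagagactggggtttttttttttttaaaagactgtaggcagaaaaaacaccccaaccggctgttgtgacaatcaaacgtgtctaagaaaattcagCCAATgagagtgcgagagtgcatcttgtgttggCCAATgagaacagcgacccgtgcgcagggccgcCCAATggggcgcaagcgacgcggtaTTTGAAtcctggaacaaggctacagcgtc
PLK1 (chr16:23678639-23678888, plus strand): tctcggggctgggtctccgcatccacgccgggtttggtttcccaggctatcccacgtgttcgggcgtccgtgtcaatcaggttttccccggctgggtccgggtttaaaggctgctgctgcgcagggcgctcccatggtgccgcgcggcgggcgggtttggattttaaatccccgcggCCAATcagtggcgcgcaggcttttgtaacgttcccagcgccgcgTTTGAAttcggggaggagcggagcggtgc
CDC20 (chr1:43358731-43358980, plus strand): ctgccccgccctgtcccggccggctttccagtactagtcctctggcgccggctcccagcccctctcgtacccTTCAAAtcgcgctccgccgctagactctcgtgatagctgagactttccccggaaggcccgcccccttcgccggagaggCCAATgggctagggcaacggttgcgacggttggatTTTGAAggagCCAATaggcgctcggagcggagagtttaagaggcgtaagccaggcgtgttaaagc
AURKB (chr17:8210226-8210475, minus strand): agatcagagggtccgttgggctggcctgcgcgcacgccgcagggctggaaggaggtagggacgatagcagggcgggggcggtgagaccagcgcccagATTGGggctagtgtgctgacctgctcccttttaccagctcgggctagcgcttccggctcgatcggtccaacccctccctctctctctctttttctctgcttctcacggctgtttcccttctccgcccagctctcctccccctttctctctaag

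In CCNB2 and PLK1 the CHR letters began at the same distance, position -29 from the start, and the nearest CCAAT box began at -54 and -73. HMMR holds TTTGAA in tandem at -28 and -22. In CDC20 the CHR letters at -65 were followed by a CCAAT box at -55. The AURKB window has a CCAAT box and no CHR letters, but it is the first listed for that gene, and any other start site was not searched. The presence of CHR letters did not go with a common direction of the ratio: the 24 genes with them ranged from CDC20 (-0.34) to HMMR (0.50) with a median of 0.11, and the 11 without them from AURKB (-0.50) to CENPE (0.33) with a median of 0.02. The ranges overlap over most of their length. Only TTTGAA and TTCGAA were counted as CHR letters, so the 11 genes without them are not shown to lack the element.

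Among the partners of FOXM1, none was past 0.32 in either direction. MYBL2, which encodes B-MYB, had 4888 and 3865 counts (206 and 192 CPM), for a ratio of -0.10 (interval -0.16 to -0.04), on the other side of 0 from FOXM1. LIN54, the DNA-contacting MuvB subunit, had 677 and 682 counts (28.5 and 33.9 CPM), for a ratio of 0.25. LIN9, another MuvB subunit, had 737 and 685 counts and a ratio of 0.13 (interval -0.02 to 0.28), which takes in 0. With a correction for transcript GC content, described further on, MYBL2 was at 0.20, LIN54 at 0.03 and LIN9 at -0.04. The side of 0 on which MYBL2 and LIN9 lay thus did not hold. Per kilobase of transcript, FOXM1 stood at 13.4 CPM with the vector and 29.9 with PKP2, and MYBL2 at 78.1 and 72.7. Ordered by that level, FOXM1 moved from position 34 of 42 to position 23. PTTG1 and AURKA were the 2 highest members in both libraries, at 132 and 112 CPM per kilobase in the vector library. CDC25C, CENPA and LIN54 were the 3 lowest in both, at 7.13, 5.54 and 4.66 in the vector library.

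CDK1, the kinase that drives entry into mitosis, had 4369 and 4409 counts (184 and 219 CPM), for a ratio of 0.25 (interval 0.19 to 0.31). Its cyclin partners had ratios nearer 0. CCNA2 (cyclin A2) had 2735 and 2496 counts and a ratio of 0.10, and CCNB1 (cyclin B1) had 4427 and 3997 counts and a ratio of 0.09. CCNB2 (cyclin B2) had 1856 and 1439 counts and lay on the lower side at -0.13 (interval -0.23 to -0.03). The phosphatases that activate CDK1 also went separate ways. CDC25B had 4108 and 3536 counts with a ratio of 0.02 (interval -0.04 to 0.09), while CDC25C, with only 360 and 242 counts, was at -0.34 (interval -0.58 to -0.10). With a correction for transcript GC content CDK1, CCNA2 and CCNB1 all stood at -0.04 and CCNB2 at -0.20, so neither the direction of CDK1 nor its place above the cyclins A2 and B1 held. None of these 6 genes came near the ratio of FOXM1 with or without that correction.

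The mitotic kinases spread from TTK at 0.26 to AURKB at -0.50. AURKB, the catalytic subunit of the chromosomal passenger complex, was the lowest of all 42 genes, with 1041 counts (43.9 CPM) in control cells and 624 (31 CPM) in PKP2 cells, or 1.42-fold lower (interval of the ratio -0.65 to -0.36). PLK1, Polo-like kinase 1, had 2804 and 1986 counts, for a ratio of -0.26 (interval -0.34 to -0.18). AURKA, which acts at spindle poles, had 5981 and 5254 counts (252 and 261 CPM), for a ratio of 0.05, and the centrosomal kinase NEK2 had 1176 and 1066 counts, for a ratio of 0.09, both with intervals that reach or cross 0. TTK, the checkpoint kinase MPS1, had 1179 and 1199 counts, and BUB1, which acts at kinetochores, had 3828 and 3503 counts and a ratio of 0.11. After a correction for transcript GC content none of the 6 kinases was above 0. TTK was then at -0.01, PLK1 at -0.05 and AURKB at -0.31.

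The other spindle checkpoint genes were close together on the higher side. BUB1B, which encodes BUBR1, had 2729 and 2652 counts and a ratio of 0.20. BUB3, its binding partner, had 5130 and 4909 counts and a ratio of 0.17. MAD2L1, which encodes MAD2, had 1710 and 1661 counts and a ratio of 0.19. All 3 intervals lay above 0, as did 25.9% of those of all 15991 genes, and overlapped one another. That share takes in genes with far fewer counts, and so with wider intervals. With a correction for transcript GC content, described further on, the ratios of BUB1B, BUB3 and MAD2L1 were 0.07, 0.01 and -0.02.

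At the centromere and kinetochore the subunits of a single complex parted. In the NDC80 complex, which holds microtubule ends, SPC25 had 663 and 734 counts (27.9 and 36.5 CPM), for a ratio of 0.38 (interval 0.23 to 0.54), while SPC24, its direct partner, had 470 and 322 counts (19.8 and 16.0 CPM), for a ratio of -0.31 (interval -0.52 to -0.10). NDC80 (808 and 737 counts; 0.10) and NUF2 (1339 and 1231 counts; 0.12) lay between them. The transcript of SPC24 has a GC content of 53.4% and that of SPC25 40.0%, and after a correction for GC content the ratios were -0.21 and 0.19. CENPE, a kinetochore motor, had 1834 and 1950 counts and a ratio of 0.33. CENPF, a large kinetochore protein with the highest count of the members, had 12412 and 11946 counts and a ratio of 0.18. CENPA, the histone H3 variant that marks centromeres, had the fewest counts, 191 and 140, with a ratio of -0.21 (interval -0.54 to 0.11), and its exons overlap SLC35F6 on the same strand.

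Subunits of the chromosomal passenger complex, which corrects attachments and guides cytokinesis, were at or below 0. BIRC5 (survivin) had 967 and 638 counts, for a ratio of -0.36 (interval -0.51 to -0.22). INCENP, the scaffold, had 1548 and 1115 counts, for a ratio of -0.24 (interval -0.35 to -0.12). CDCA8 (borealin) had 1286 and 1084 counts, or 54.2 and 53.8 CPM, for a ratio of -0.01. With AURKB, 3 of the 4 subunits had intervals below 0, against 28.8% of all 15991 genes, many of which have fewer counts and wider intervals. Of the 3793 well-counted genes with a GC content of 49.3% to 60.1%, where these 4 transcripts lie, 2720 had ratios below 0. The transcripts of BIRC5, INCENP and CDCA8 have a median GC content of 51.7%, above the 44.9% of all members. After the correction for GC content AURKB and BIRC5 were at -0.31 and -0.30, and INCENP and CDCA8 at 0.07 and 0.05.

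Genes of mitotic exit, listed with CDCA3, lay below 0 in 5 of 5 cases, each with an interval below 0, against 28.8% of all 15991 genes. That share takes in genes with far fewer counts, and so with wider intervals. Among the 3793 well-counted genes with a GC content of 49.3% to 60.1%, where these 5 transcripts lie, 2720 ratios were below 0. CDC20, the coactivator of the anaphase-promoting complex, had 2804 and 1874 counts (118 and 93.1 CPM), for a ratio of -0.34 (interval -0.43 to -0.26). It shares 20.3% of its 31-base stretches with the pseudogene CDC20P1, which had 22 and 14 counts. UBE2C, the ubiquitin-conjugating enzyme of that complex, had 2161 and 1481 counts and a ratio of -0.31. PTTG1 (securin) had 3356 and 2635 counts and a ratio of -0.11. ESPL1 (separase), the protease that securin holds back, had 1805 and 1411 counts and a ratio of -0.12. CDCA3, which promotes entry into mitosis, had 739 and 560 counts and a ratio of -0.16. The median GC content of these 5 transcripts is 54.5%. With the correction for GC content the median of these 5 genes went from -0.16 to -0.10, and ESPL1 turned to 0.09.

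Before correction for transcript GC content, the spindle proteins held the highest ratio after FOXM1. HMMR, a hyaluronan-binding and spindle protein, had 2339 counts (98.6 CPM) in control cells and 2812 (140 CPM) in PKP2 cells, for a ratio of 0.50 (interval 0.42 to 0.58), or 1.42-fold higher. ASPM, a spindle pole protein, had 5832 and 5767 counts and a ratio of 0.22. DLGAP5 (HURP), which stabilises kinetochore fibres, had 3004 and 2756 counts and a ratio of 0.11. NUSAP1 (3163 and 2797 counts) and PRC1 (4689 and 4153 counts), which bundle spindle microtubules, both had a ratio of 0.06. TPX2, which activates aurora A on the spindle, had 7433 and 6290 counts, or 313 and 312 CPM. The proliferation marker MKI67 had 4135 and 4115 counts and a ratio of 0.23 (interval 0.17 to 0.29), and TOP2A, the topoisomerase of mitotic chromosomes, had 11431 and 9945 counts and a ratio of 0.04. With the correction for GC content HMMR was at 0.22, below CDC25B at 0.30. ASPM, DLGAP5, NUSAP1, TPX2 and TOP2A were then at -0.04, -0.12, -0.05, -0.06 and -0.18, and PRC1 and MKI67 at 0.01 and 0.22.

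**Figure D2:**
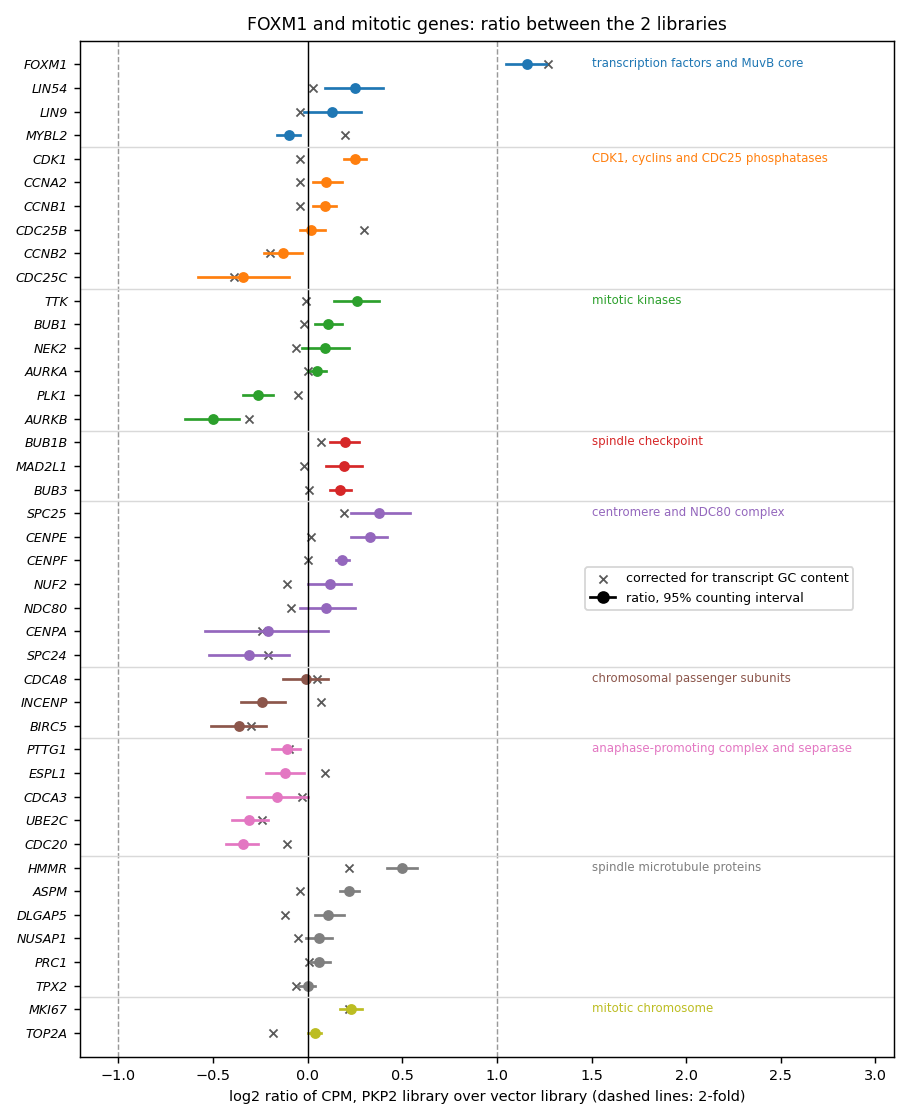
Log2 ratio of the PKP2 over the vector library for each member (points; lines are 95% counting intervals), and the same ratio corrected for transcript GC content (crosses), grouped by role. FOXM1 lies beyond the dashed 2-fold line at 1.16 and at 1.27 with the correction, while the other genes run from AURKB at -0.50 to HMMR at 0.50.

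Counted over the whole group, 26 of 42 ratios were above 0 and 16 below, with 19 intervals above 0, 13 below and 10 taking in 0. Over all 15991 genes 7563 ratios were above 0 and 8428 below, with 25.9% of intervals above 0 and 28.8% below. The median level in the vector library was 19.5 CPM over all these genes and 94.8 CPM over the members. Fewer counts give wider intervals, so the shares of intervals are not matched for depth and show no excess among the members. At a smaller step, a ratio of 0.32 in either direction, 4 members were higher (FOXM1, HMMR, SPC25 and CENPE) and 4 lower (AURKB, BIRC5, CDC20 and CDC25C), against 16.9% and 25.5% of all genes. The other 34 members lay within that step, as did 72.4% of the genes that averaged 1000 counts or more. The median of the 42 ratios was 0.08, and that of all 15991 genes -0.03. Over the 4845 genes that averaged 1000 counts or more, as 32 of the members did, the median was 0.06, close to that of the members.

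The order of the ratios within the group went with the GC content of the transcripts. Across the 42 genes Spearman's rho between ratio and GC content was -0.74, and across the 11610 genes that averaged 100 counts or more and have a transcript sequence it was -0.61; genes share the same 2 libraries and are not replicates. The 14 members with the lowest GC content (35.3% to 41.2%), among them CENPE, CDK1, HMMR, TTK and ASPM, were all above 0, with a median of 0.21. All 2242 well-counted genes in that range of GC content had a median of 0.23. The 14 with the highest (49.3% to 60.1%), among them AURKB, CDC20, PLK1, BIRC5 and INCENP, were below 0 in 12 cases, with a median of -0.20, and the 3793 well-counted genes in that range had a median of -0.13. The 2 above 0 were FOXM1 and CDC25B. With the correction for GC content 19 of the 42 ratios changed sign, the median became -0.04, and 15 lay above 0 and 27 below. FOXM1, at a GC content of 54.0%, had a corrected ratio of 1.27, and the highest of the others was CDC25B at 0.30. The lowest corrected ratio was that of CDC25C at -0.39, with AURKB at -0.31.

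**Figure D3:**
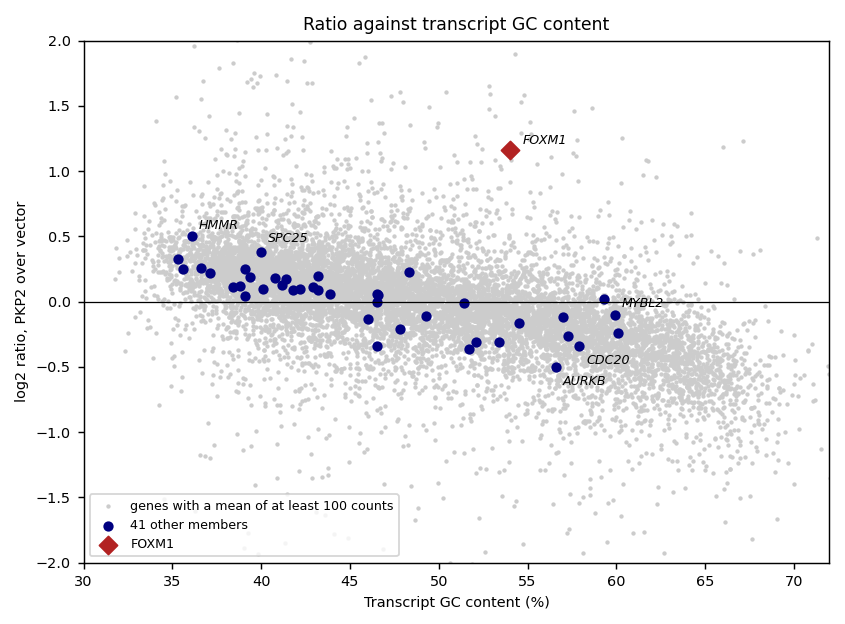
Log2 ratio of the PKP2 over the vector library against the GC content of the transcript for genes averaging 100 counts or more (grey; the axis ends at ratios of -2 and 2), the 41 other members (blue) and FOXM1 (red diamond). The blue points slope down with the grey cloud, from HMMR at 0.50 to AURKB at -0.50, and FOXM1 stands apart at 1.16.

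Other genes of the same pathway, listed by complex, had list medians near that of the members and held single genes with ratios farther from 0 than that of FOXM1. Of 117 such genes, all above the count minimum, 1 was past 2-fold on the higher side and 2 on the lower, with a median ratio of 0.09 (-0.01 with the GC correction). Among 11 other subunits of the MuvB complexes and their pocket protein partners, 1 was lower and 0 higher at 2-fold (median -0.06). That gene was LIN52, a MuvB core subunit and the site where the kinase DYRK1A acts, with 359 and 98 counts, for a ratio of -1.64 (interval -1.97 to -1.31). MYBL1, the B-MYB relative A-MYB, was at 0.63 (405 and 533 counts), and LIN37, with few counts (134 and 88), at -0.37. LIN37 shares 24.3% of its 31-base stretches and overlaps another gene on the same strand.

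Among 33 other late cell cycle genes (median -0.02) the 1 past 2-fold was HJURP, the chaperone that loads CENPA at centromeres, with 4554 counts in control cells and 1293 in PKP2 cells, for a ratio of -1.58 (interval -1.67 to -1.49). DEPDC1 was at 0.86 (2924 and 4499 counts, with 22.5% of its 31-base stretches shared). PKMYT1, the membrane-bound kinase that inhibits CDK1, was at -0.71 (-0.09 with the GC correction, and 28.1% of its stretches shared). Among 33 other kinetochore genes (median 0.09) the 1 past 2-fold was MIS12, which anchors the NDC80 complex, with 414 and 1135 counts, for a ratio of 1.69 (interval 1.53 to 1.86). Its overlapping neighbour DERL2, on the other strand, had 808 and 841 counts, for a ratio of 0.29. CENPX (-0.48) and KNL1 (0.48) were the next farthest from 0. LIN52, HJURP and MIS12 kept these directions with the GC correction, at -1.76, -1.58 and 1.53.

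All 17 other genes of the anaphase-promoting complex and its regulators were within 2-fold (median 0.07). The farthest from 0 were FZR1 (-0.65), which encodes the coactivator CDH1, UBE2S (-0.56), the chain-extending enzyme, and the subunit ANAPC2 (-0.43), which with the GC correction were at -0.18, -0.40 and 0.01. The 8 condensin genes had a median of 0.10, with NCAPH2 at -0.41, SMC2 at 0.27 and NCAPD2 at -0.23. The 15 cohesin genes had 13 ratios above 0 and a median of 0.26, which the GC correction took to 0.04. Over all 15991 genes 7563 ratios were above 0. The median GC content of the cohesin transcripts is 40.2%. Of the 2242 well-counted genes with a GC content of 35.3% to 41.2%, 1897 had ratios above 0. Among the cohesin genes, the acetyltransferase gene ESCO2 (0.66), the loader subunit MAU2 (0.54) and STAG1 (0.38) were the farthest from 0.

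**Figure D4:**
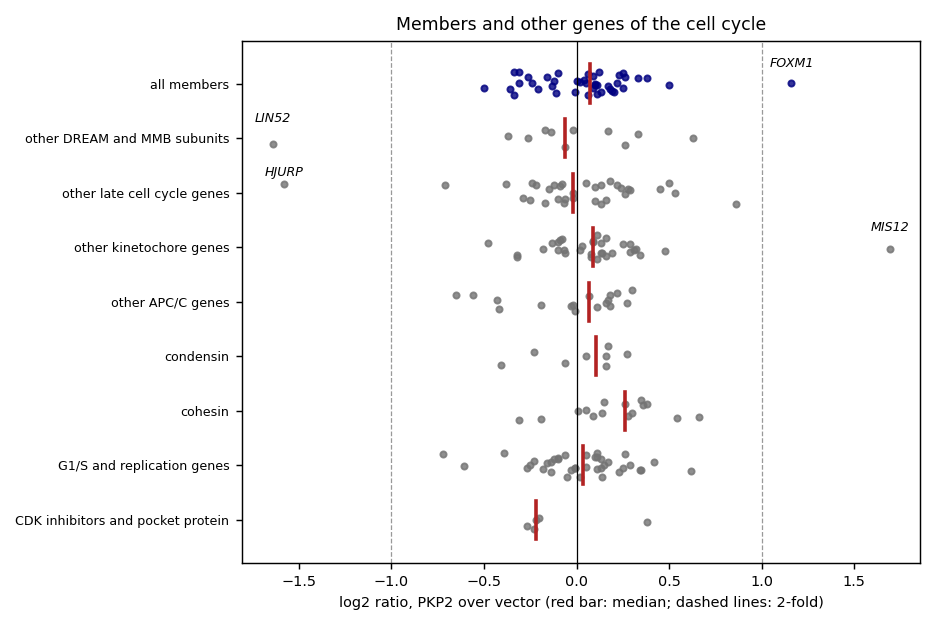
Log2 ratio of the PKP2 over the vector library for the 42 members (top) and for other cell cycle genes by list, 1 point per gene with a red bar at the median (points are spread vertically so that they do not hide one another). Medians stay between -0.22 and 0.26, and FOXM1, MIS12, HJURP and LIN52 are the genes beyond the dashed 2-fold lines.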

How the data were processed

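Libraries were prepared from Trizol-extracted total RNA with an Illumina TruSeq kit, per the labels' protocols. Bowtie 0.12.2 and the builds GRCh37 and hg19 appear in the submitters' processing notes; how reads were assigned to genes, with which annotation and strand setting, is not given in the sources used here. The deposited files give unnormalized counts for each Ensembl gene, per the file headers. As deposited they are typed as estimated counts because of a decimal in 1 damaged row, and no rounding was needed. In each file 2 unreadable rows were left out. Symbols were found for 22579 of 22965 IDs.

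Library sizes were totals times TMM factors (computed for scaling alone with edgeR 4.0.16 under R 4.3.3: 1.01 in the vector and 0.991 in the PKP2 library). A log2 ratio is that of CPM, without pseudocount, and its 95% interval is exact binomial (Clopper-Pearson). No molecular identifiers are named, so reads are not independent molecules and intervals cover counting error alone. Genes averaging 10 counts or more were described against 2-fold; a gene at 0 was set at 3 counts. No p-value was computed, since each group is 1 library.

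GC content, length, overlaps and shared 31-base stretches came from GENCODE release 29, used by gene ID. For the GC and length corrections a lowess curve (statsmodels 0.14.6, fraction 0.3), fitted to genes averaging 100 counts or more, was subtracted. Scripts ran under Python 3.11.15 with pandas 2.3.3, NumPy 2.4.6, matplotlib 3.10.9 and SciPy 1.17.1, and were tested on simulated data. Members and lists were chosen with earlier results of these data known. The text names every member, and from each other list up to 3 genes with ratios farthest from 0, of which 1 is not reported here; RHNO1, TULP3 and the promoters shown were chosen after values were seen. Alternatives were other scalings (DESeq2 1.42.0 size factors, totals), pseudocounts, count minimums, thresholds, both corrections, and members with little shared sequence.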

Additional observations from a re-analysis of the deposited data

How the results depend on the processing

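FOXM1 stayed the 1 member at least 2-fold higher, with 0 lower, under both other scalings, with 1 or 5 CPM added, without a count minimum or with one of 100, at a threshold of 1.5-fold, with the GC or the length correction, and without the 3 members that share at least 20% of their sequence or overlap a gene on the same strand (BUB1B, CDC20 and CENPA). At a threshold of 0.32 on the log2 scale 4 members were higher and 4 lower. The median ratio of the members was 0.08, and -0.04 with the GC correction, which turned its sign; under the other alternatives it ran from 0.05 to 0.09. The median of the mitotic members minus FOXM1 was -1.09, and -1.31 with the GC correction. The signs of 1 member with totals alone, 2 with DESeq2 size factors, 3 with the length correction and 19 with the GC correction differed from those given. No paired analysis was possible because each group is 1 library. Depth limits CENPA (191 and 140 counts) and CDC25C (360 and 242 counts) most.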

Other observations

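Genes of the G1/S transition and DNA replication, many of them known targets of E2F factors, had a median ratio of 0.03, with 20 of 38 above 0 and 18 below, and none past 2-fold. CDT1, a licensing factor, was the lowest at -0.72 (1236 and 636 counts; -0.21 with the GC correction). UHRF1, a reader of hemimethylated DNA, was at -0.61 (1543 and 858 counts; -0.35 with the GC correction, and 27.3% of its 31-base stretches shared).

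The CDK inhibitors measured above the count minimum lay below 0 in 4 of 4 cases: CDKN1A, which encodes p21, had 2894 and 2102 counts (-0.22), CDKN1B had 653 and 474 (-0.23), CDKN2C had 625 and 440 (-0.27), and CDKN2D had only 80 and 59 (-0.20; interval -0.71 to 0.30). With the GC correction they were at 0.01, -0.25, -0.03 and 0.15. Over all 15991 genes 8428 ratios were below 0. So were 2720 of the 3793 well-counted genes with a GC content of 49.3% to 60.1%, where CDKN1A and CDKN2C lie. RB1, the retinoblastoma pocket protein, had 2042 and 2249 counts, a ratio of 0.38 (0.12 with the GC correction). CDKN2A and CDKN2B were not analysed here.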
